A study of Mus musculus with 7 samples.

Results

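Cornified envelope and epidermal differentiation genes were examined in the dorsal skin of aged mice treated topically with ABT-263 or with DMSO. The set holds every Sprr and Lce gene of the mouse together with Flg, Flg2, Hrnr, Rptn, Ivl, Lor, Cnfn, Tchh, Tgm1, Tgm3, Klk5, Klk7, Asprv1 and Cdsn. Members were chosen by symbol and by a total of at least 10 counts over all 7 libraries. That rule does not itself use the difference between treatments, but the set was proposed with earlier results of these data known. A matching symbol was found for 52 of the 55450 genes counted, and 51 reached that total. Just inside the threshold lay Sprr3 with 36 counts and Sprr2a2 with 90, and the 1 matching gene outside it, the pseudogene Sprr2c-ps, had 0. All mice were male C57BL/6 animals aged 24 months, with no transgene. Their back hair was removed by clipping and with a depilatory lotion, the skin was cleaned with ethanol, and the site was kept under a semi-occlusive dressing for 5 days, so that depilation and occlusion were common to both groups. The 4 control mice (480 to 483) received DMSO, and 3 mice (476 to 478) received 5 µM ABT-263, also called navitoclax, a drug that blocks the survival proteins BCL-2 and BCL-xL and is used to remove senescent cells. One library of polyadenylated RNA was made from whole skin of each mouse.

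Keratinocytes leave the basal layer, pass through the spinous and granular layers and end as dead, flattened corneocytes. Under the membrane of a corneocyte lies the cornified envelope, a sheet of proteins joined by transglutaminases. Involucrin (Ivl) is laid down early, the small proline-rich (Sprr) proteins act as cross-bridges, and loricrin (Lor), filaggrin (Flg) and the late cornified envelope (Lce) proteins are added late, in the granular layer. Sprr genes are also known to be expressed strongly in wounded and inflamed epidermis. Most of these genes sit side by side in the epidermal differentiation complex on chromosome 3.

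The 51 members were divided into 17 early genes (16 Sprr genes and Ivl), 23 late genes (21 Lce genes, Flg and Lor) and 11 others. On mouse build GRCm38 (mm10) 44 of them lay on chromosome 3 between positions 92080271 and 93449077, a stretch that starts with Lor and ends with Tchh, and 7 lay elsewhere. Expression is given in CPM, counts scaled to a library of fixed size with TMM normalization, and fold changes are log2 values of ABT-263 over DMSO with their standard error (SE), from edgeR's quasi-likelihood test with Benjamini-Hochberg adjustment over 17959 genes. That test covered 49 members. Sprr3 and Sprr2a2 did not reach its expression filter, and Sprr2j-ps and Sprr2k reached it only through the ABT-263 libraries. The 4 DMSO libraries held 20344364 to 26824123 counts and the 3 ABT-263 libraries 27325963 to 43562330, so every ABT-263 library was the deeper, and with all libraries thinned to the size of the smallest the same single member passed the test. With 4 mice against 3, an exact permutation test of the absolute difference in 1 gene has 35 splits and cannot give a p-value below 0.0286, and the labels name no batch.

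Promoters of the 2 largest families and of Lor differed in the motifs they held, and 5 of them are shown because the fold changes of these families had opposite signs. RefSeq windows of 300 bases, from 250 before the start of transcription to 50 after it, were found for 48 of the 51 members. Letters were searched on both strands: TGANTCA, the site bound by AP-1 (Fos and Jun proteins), TATAAA for the TATA box, and ATGCAAAT, the octamer bound by POU factors. Capitals mark these motifs on the printed strand, where a reversed octamer reads ATTTGCAT. Each sequence runs 5′ to 3′ on the strand of its gene, from RefSeq on build GRCm38.p6, and where the windows lie is stated after them.
Lor: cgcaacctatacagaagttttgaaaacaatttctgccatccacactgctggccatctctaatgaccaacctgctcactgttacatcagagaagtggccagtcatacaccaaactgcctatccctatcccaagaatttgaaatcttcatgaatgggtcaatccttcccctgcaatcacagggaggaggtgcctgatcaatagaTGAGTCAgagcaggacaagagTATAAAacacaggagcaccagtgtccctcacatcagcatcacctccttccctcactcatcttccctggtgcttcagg
Sprr2d: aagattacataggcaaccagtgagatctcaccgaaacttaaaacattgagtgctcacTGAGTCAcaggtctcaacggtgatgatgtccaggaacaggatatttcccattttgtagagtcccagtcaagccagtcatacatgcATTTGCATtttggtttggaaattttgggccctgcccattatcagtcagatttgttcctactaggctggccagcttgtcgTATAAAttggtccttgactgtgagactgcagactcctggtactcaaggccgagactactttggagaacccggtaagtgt
Sprr2f: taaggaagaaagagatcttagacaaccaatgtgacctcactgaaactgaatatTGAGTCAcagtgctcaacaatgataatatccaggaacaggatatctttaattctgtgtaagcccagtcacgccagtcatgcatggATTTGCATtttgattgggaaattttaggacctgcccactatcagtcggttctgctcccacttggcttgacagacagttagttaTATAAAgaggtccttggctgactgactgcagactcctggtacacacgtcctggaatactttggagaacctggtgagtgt
Lce1b: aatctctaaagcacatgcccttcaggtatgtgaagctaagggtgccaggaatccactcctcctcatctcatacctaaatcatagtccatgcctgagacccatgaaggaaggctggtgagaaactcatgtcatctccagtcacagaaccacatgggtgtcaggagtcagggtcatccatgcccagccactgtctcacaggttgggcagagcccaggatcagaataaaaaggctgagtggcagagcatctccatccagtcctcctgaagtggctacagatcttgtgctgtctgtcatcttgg
Lce1m: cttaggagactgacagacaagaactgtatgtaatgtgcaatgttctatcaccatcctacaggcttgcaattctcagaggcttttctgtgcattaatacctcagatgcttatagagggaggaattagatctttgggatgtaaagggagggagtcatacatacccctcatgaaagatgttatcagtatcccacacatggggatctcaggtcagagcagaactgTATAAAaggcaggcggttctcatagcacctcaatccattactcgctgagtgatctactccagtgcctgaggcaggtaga
The windows are chr3:92083093-92083392 on the minus strand for Lor, chr3:92338890-92339189 on the plus strand for Sprr2d, chr3:92364937-92365236 on the plus strand for Sprr2f, chr3:92656877-92657176 on the minus strand for Lce1b and chr3:93019012-93019311 on the minus strand for Lce1m. Lor held AP-1 and TATA letters, Sprr2d and Sprr2f all 3 motifs, Lce1m the TATA letters alone and Lce1b none.

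An AP-1 site was present in 7 of the 10 Sprr2 promoters found (70%), in 2 of 4 of the other Sprr genes and in none of the 13 Lce1 or 6 Lce3 promoters, against 7.81% of all 32851 promoters. Of all members with a promoter 14 of 48 held one, among them 10 of 15 early genes and 2 of 22 late genes (Lor and Flg). The TATA box stood in 7 of 10 Sprr2, 2 of 13 Lce1 and 1 of 6 Lce3 promoters, against 13.6% of all. The octamer was found in 7 of 10 Sprr2 promoters and in none of the other Sprr, Lce1 or Lce3 promoters, against 1.74% of all. AACCGGTT, a site of grainyhead-like factors, was in none of the promoters of these 4 families, against 0.146% of all. The Sprr2 genes are near copies of one another, so their matches are not independent, and a match in these letters is a description of the sequence only.

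The treatment groups differed most clearly in 1 late gene. Lce1m, a late cornified envelope gene, was the only member past an adjusted p-value of 0.05, and it fell by 2.61 on the log2 scale (SE 0.46, adjusted p = 0.0111). No member rose at that threshold. Across all genes tested 24.2% were called, 12.4% higher and 11.7% lower, so 1 of 49 members is below the background. At an unadjusted p under 0.05 there were 10 of 49 members, 3 higher and 7 lower, and this too is below the background of 40.1% (20.6% higher, 19.5% lower). With the DESeq2 Wald test 11 members were called (background 26.6%, of which 13.9% higher and 12.6% lower), 3 higher (Sprr2a1, Sprr2a2 and Sprr2f) and 8 lower (Flg2 and 7 Lce1 genes: Lce1a1, Lce1a2, Lce1b, Lce1c, Lce1j, Lce1l and Lce1m). Of the 3 higher, Sprr2a2 had not reached the edgeR filter and had at most 0.26 CPM in a DMSO mouse. Sprr2a1 and Sprr2a2 share most of their sequence with each other, so the levels of both are uncertain.

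Direction nevertheless split by family. The median log2 fold change was 2.21 over the 15 early genes tested and -1.08 over the 23 late genes, beside 0.00 over all genes and 0.13 over the 11 other members. Without Sprr2j-ps and Sprr2k, which passed the filter only through the treated mice, the early median was 1.47. Among early genes 14 of 15 values were positive, the exception being Ivl, and 12 of 15 were positive without ABT-263 mouse 477. Among late genes 17 were negative, and the 6 positive values were those of the 6 Lce3 genes. Members of a family largely shared their highest and lowest mice, so these counts of signs are not independent. By family the median was 2.66 for the 11 Sprr2 genes tested, 0.83 for Sprr1a, Sprr1b and Sprr4, -1.31 for the 14 Lce1 genes and 0.70 for the Lce3 genes. For Sprr1a, Sprr1b and Sprr4 it turned to -0.13 without ABT-263 mouse 477. Every ABT-263 mouse lay above every DMSO mouse in 10 of 51 members, a share near the background of 18.7% over the genes tested. All 10 were Sprr2 genes, but Sprr2a2 was not tested, and Sprr2j-ps and Sprr2k are the 2 that depended on the treated mice. Every ABT-263 mouse lay below every DMSO mouse in 2 of 51 members (background 18.4%), Lce1m and Flg2. In whole skin, fewer cells of a type and less RNA per cell cannot be told apart.

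**Figure D1:**
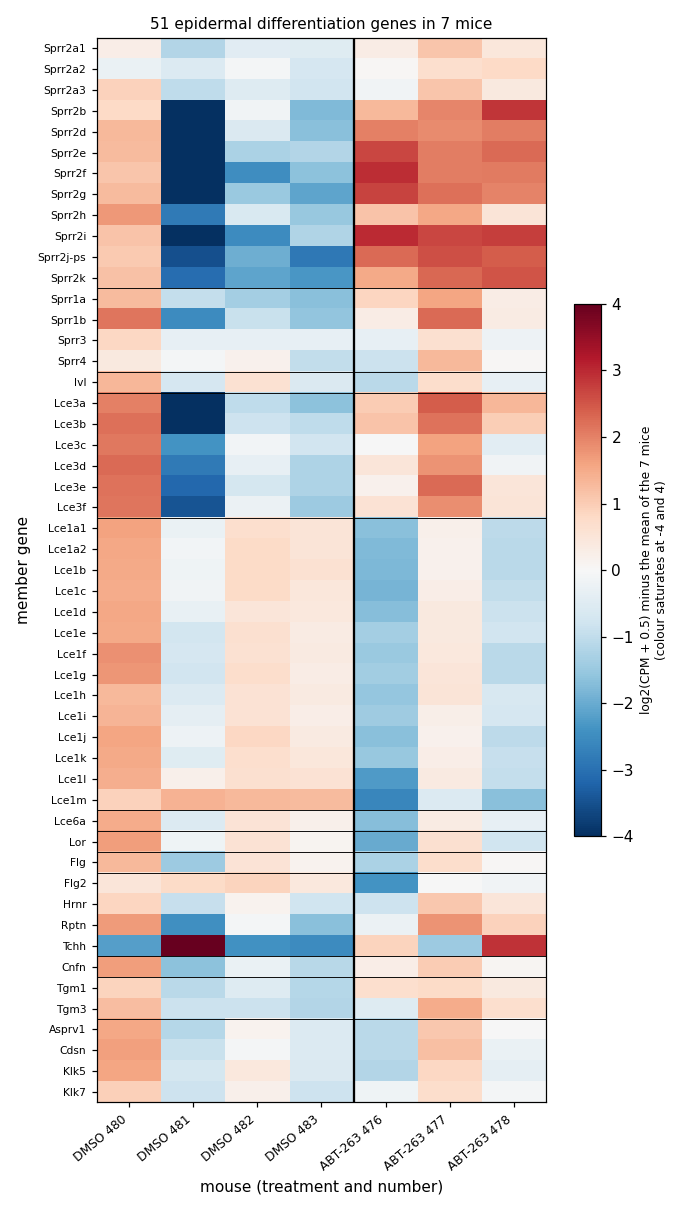
Heat map of log2(CPM + 0.5) minus the mean over the 7 mice for the 51 members (rows, grouped by family) in 4 DMSO and 3 ABT-263 mice (columns), with red above and blue below the mean and colour saturated at -4 and 4. DMSO mouse 480 is red in nearly every row and DMSO mouse 481 blue in most. The Sprr2 rows are red in all ABT-263 mice, except that Sprr2a3 is slightly below the mean in mouse 476. The Lce1m row is red in all DMSO mice and blue in all ABT-263 mice.

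The DMSO mice differed widely among themselves in these genes. Mouse 480 was the highest DMSO mouse in 46 of 49 members (93.9%, against 30.6% of all genes tested), and mouse 481 the lowest in 41 (83.7%, against 27.6%). The median log2 range between the highest and the lowest DMSO mouse was 2.48 for the members and 0.587 for all genes. For the Sprr2 genes it was 5.15 among DMSO mice and 0.83 among ABT-263 mice, so the treated mice were alike where the controls were not. Among ABT-263 mice, mouse 477 was the highest in 41 of 49 members. The members together took 0.868% to 3.64% of the counts of a library. Values without mouse 480 are therefore given beside the results that rest on it. Leaving out mouse 481 instead moved values down, to an early median of 1.80 and a late median of -1.33. No early gene was then called, against 1404 of 17665 genes called higher. Log2 fold changes without mouse 481 were 0.97 for Sprr1a (adjusted p = 0.423) and 1.80 for Sprr2d (adjusted p = 0.112). They were 1.04 for Lce3a (adjusted p = 0.475) and 0.61 for Tgm1 (adjusted p = 0.412).

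Sprr2 genes, which encode short proline-rich cross-bridging proteins, showed the largest differences of any family here. Sprr2d, the most highly expressed of them per kilobase, stood at 563, 6.6, 156 and 72.3 CPM in DMSO mice 480, 481, 482 and 483, and at 938, 867 and 960 CPM in ABT-263 mice 476, 477 and 478. The groups did not overlap, and the 3 treated mice were much closer to each other than the controls were, but the log2 fold change of 2.21 (SE 1.10) did not pass the test (adjusted p = 0.178). Sprr2f also separated the groups, with 45.7, 0.8, 3.3 and 6.4 CPM in DMSO mice and 166, 87.1 and 89.0 CPM in ABT-263 mice. Its log2 fold change was 3.02 (SE 1.16, adjusted p = 0.0977). Sprr2i gave the largest fold change of the family, 3.36 (SE 1.43, adjusted p = 0.128), from 63.8, 0, 4.7 and 12.2 CPM in DMSO mice to 233, 188 and 200 CPM in ABT-263 mice. In Sprr2h, by contrast, mouse 480 with 313 CPM lay above every treated mouse (208, 276 and 135 CPM), while the other DMSO mice had 12.8, 61.7 and 32.4 CPM. Its log2 fold change was 0.97 (SE 0.96, adjusted p = 0.487). Summed over its 12 genes the family had 1306, 47.6, 315.5 and 185.2 CPM in DMSO mice and 2093, 1972 and 2014 CPM in ABT-263 mice. Sprr2d, Sprr2f, Sprr2i and Sprr2h were chosen for these sentences after their values were seen.

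Without DMSO mouse 480, 16 members rose (background 11.6%) and 1, Lce1m, fell (background 11.9%). The 16 included 10 Sprr2 genes, but 5 of these (Sprr2a1, Sprr2e, Sprr2i, Sprr2j-ps and Sprr2k) reached the expression filter of that fit only through the ABT-263 mice and could hardly have been tested without being higher there. Of the 6 other Sprr2 genes 5 rose and Sprr2b did not pass, with log2 fold changes of 3.56 for Sprr2d (SE 1.00, adjusted p = 0.0481) and 5.03 for Sprr2f (SE 0.75, adjusted p = 0.0107). The 6 members outside Sprr2 were Sprr1a, Sprr1b, Lce3a, Cnfn, Tgm1 and Tgm3. With both DMSO mice 480 and 481 left out 12 members rose (background 4.45%) and 1 fell (background 5.43%). The 12 included Sprr2j-ps, at 0.98 and 0.29 CPM in DMSO mice 482 and 483, and Sprr2k, at 0.46 and 0.33 CPM. How many of the 12 reached the filter of that fit only through the ABT-263 mice was not examined. The calls also depended on the test, since limma on the variance-stabilized values of all 7 mice called 5 Sprr2 genes higher (Sprr2f, Sprr2g, Sprr2i, Sprr2j-ps and Sprr2k, background 11.9%) and Lce1m lower (background 11.5%). Of those 5 genes, Sprr2j-ps and Sprr2k had reached the main filter only through the ABT-263 mice. What set mouse 480 apart was not tested.

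Sprr1a and Sprr1b, cornifins that are also induced by stress in keratinocytes, had their highest control value in mouse 480. Sprr1a had 789 CPM in that mouse, 169, 127 and 104 CPM in the other DMSO mice and 601, 995 and 408 CPM in ABT-263 mice. The groups overlapped only through mouse 480, and the log2 fold change was 1.17 (SE 0.74, adjusted p = 0.274), or 2.32 without that mouse (SE 0.36, adjusted p = 0.0102). Sprr1b had 1021, 39.7, 124 and 77.5 CPM in DMSO mice and 286, 1105 and 289 CPM in ABT-263 mice. Its log2 fold change of 0.83 (SE 1.13, adjusted p = 0.621) became 2.80 without mouse 480 (SE 0.70, adjusted p = 0.0349) and -0.13 without ABT-263 mouse 477. Ivl, the early envelope scaffold, was the 1 early gene with a negative fold change. It had 267, 66.3, 160 and 70.9 CPM in DMSO mice and 49.2, 172 and 84.7 CPM in ABT-263 mice, with overlap and a log2 fold change of -0.47 (SE 0.60, adjusted p = 0.591). Sprr4 was low and differed by 0.51 on the log2 scale (adjusted p = 0.521), and by -0.30 without ABT-263 mouse 477. Sprr3 was close to absent.

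**Figure D2:**
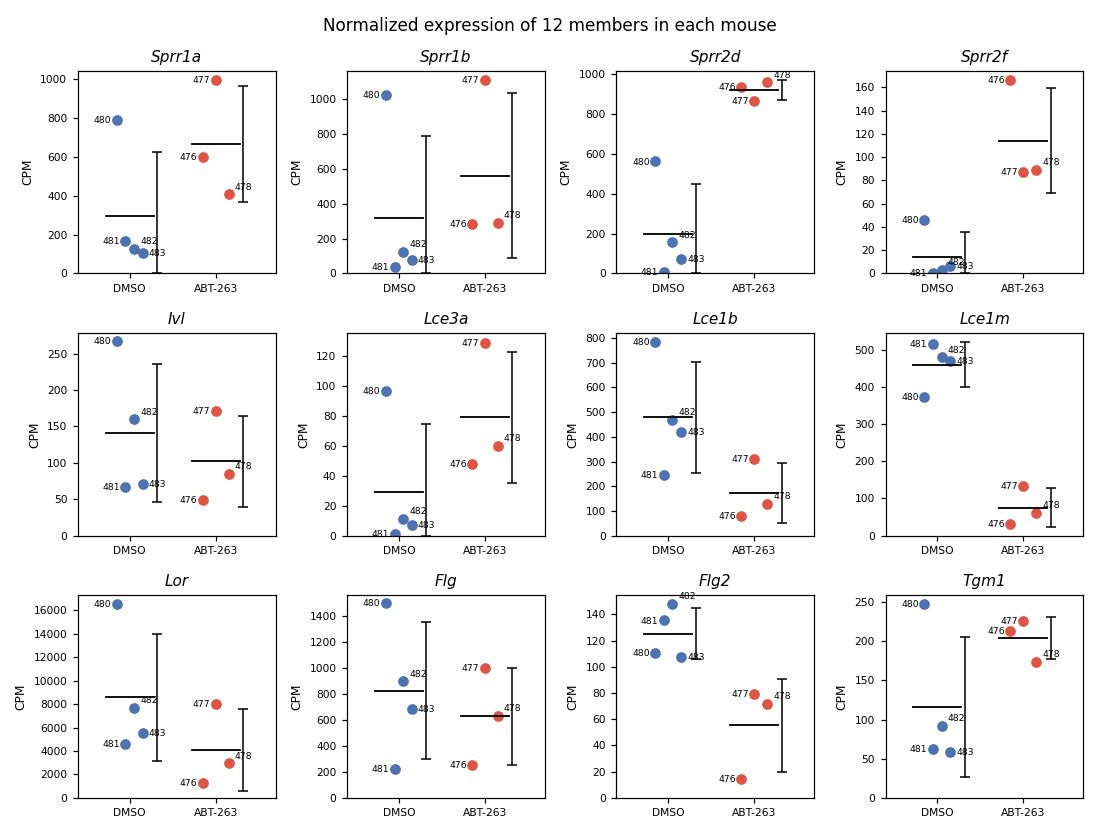
Normalized expression (CPM, linear axis from 0) of 12 members in each of 4 DMSO (blue) and 3 ABT-263 (red) mice, with the mouse number beside each point, the group mean as a line and the SD as a bar, cut at 0 where it would fall below. Sprr2d and Sprr2f separate the groups upward, Lce1m and Flg2 separate them downward, and in the other 8 panels the groups overlap and mouse 480 is the highest control.

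Lor, the main protein of the mature envelope, had the highest level per kilobase of exon of all members in both groups, 4824 CPM per kilobase in DMSO and 2287 in ABT-263 mice. Its CPM values were 16503, 4605, 7669 and 5549 in DMSO mice and 1279, 7974 and 2953 in ABT-263 mice. Treated mice 476 and 478 were below all controls while mouse 477 was not, and the log2 fold change was -1.08 (SE 0.68, adjusted p = 0.275). For Lor it was -0.55 without DMSO mouse 480 (adjusted p = 0.540), -0.65 without ABT-263 mouse 476 (adjusted p = 0.528) and -2.01 without ABT-263 mouse 477 (adjusted p = 0.0689). Flg, whose product bundles keratin filaments and is later broken down to moisture-holding amino acids, had 1497, 224, 898 and 682 CPM in DMSO mice and 254, 996 and 631 CPM in ABT-263 mice. The groups overlapped throughout (log2 fold change -0.40, SE 0.65, adjusted p = 0.682). Per kilobase the ranking of the members shifted between groups. Asprv1, Cnfn and Lce1a1 followed Lor in DMSO mice, at 1110, 971 and 787 CPM per kilobase. In ABT-263 mice Sprr2d (1353 CPM per kilobase) moved from rank 15 to rank 2, and Lce1a1 (297 CPM per kilobase) from rank 4 to rank 9.

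All 14 Lce1 genes had negative log2 fold changes, from -2.61 to -0.90, and stayed negative in every alternative fit and with each mouse left out. The 14 values are not independent, since mouse 477 was the highest and mouse 476 the lowest treated mouse in all 14. Lce1b is an example, with 784, 244, 470 and 421 CPM in DMSO mice and 79.1, 312 and 130 CPM in ABT-263 mice. The groups overlapped because treated mouse 477 exceeded control mouse 481, and the log2 fold change of -1.47 (SE 0.54) had an adjusted p of 0.0855. Without mouse 477 it was -2.18 (SE 0.50, adjusted p = 0.0279), and 7 Lce1 genes were then called lower (background 9.33%), and without mouse 480 it was -1.13 (adjusted p = 0.155). Lce1m stood apart from its family. It had 373.5, 514.6, 480.0 and 470.5 CPM in DMSO mice and 31.6, 134 and 60.8 CPM in ABT-263 mice. Here mouse 480 was the lowest control rather than the highest, every treated mouse was far below every control, and the call held with each of the 7 mice left out in turn (log2 fold change -3.29 to -2.23, adjusted p 0.00533 to 0.0442). On the chromosome the 6 Lce3 genes lie between Lce1m and the other Lce1 genes, and its neighbours among the members are Lce3f at 24.4 kb on one side and Flg2 at 178 kb on the other.

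Lce3 genes, the branch of the family that is known to respond to barrier injury, did not share the direction of Lce1. Lce3a had 97.0, 0.8, 11.3 and 7.2 CPM in DMSO mice and 48.3, 129 and 60.2 CPM in ABT-263 mice. Mouse 480 again lay among the treated mice, and the log2 fold change was 1.44 (SE 1.27, adjusted p = 0.436), or 3.62 without it (SE 0.89, adjusted p = 0.0350). The 6 Lce3 values ranged from 0.09 to 1.44. Their median turned to -0.07 without ABT-263 mouse 477 and was 2.56 without DMSO mouse 480, so the direction of Lce3 rests on single mice. For Lce6a the log2 value was -0.97 (SE 0.60, adjusted p = 0.261).

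**Figure D3:**
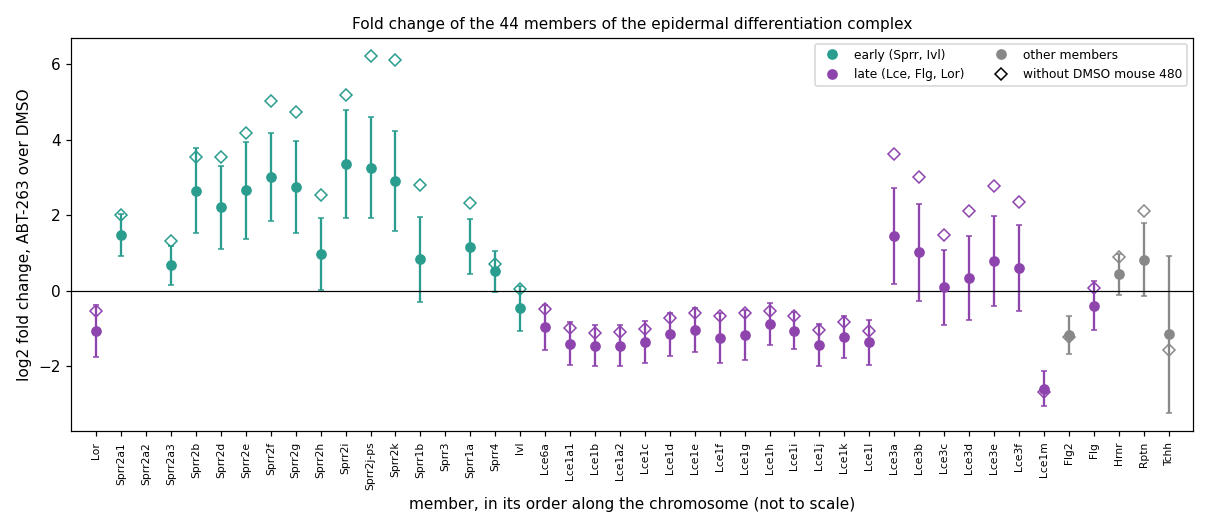
Log2 fold change of ABT-263 over DMSO (filled points, bars are SE) for the 44 members on chromosome 3 in their order, with the fit without DMSO mouse 480 as open diamonds, and no point for Sprr2a2 and Sprr3, which were not tested. The Sprr2 run lies above 0 and the Lce1 run below 0 in both fits, while the Lce3 run lies between 0.09 and 1.44 with all mice and higher without mouse 480.

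Ratios within a library, which do not depend on how libraries are scaled to each other, set the families side by side. These ratios were picked after the values were seen and are given as descriptions. For every 100 CPM of Lce1 there were 19.3, 2.11, 8.002 and 5.42 CPM of Sprr2 in DMSO mice and 296, 71.2 and 176 CPM in ABT-263 mice. Mouse 480, high in both families, was on the control side of this ratio. Lce1 per 100 CPM of the basal keratin Krt14 was 31.9, 26.8, 36.3 and 36.4 in DMSO mice and 7.46, 11.1 and 11.1 in ABT-263 mice. The groups were apart and the controls were close, although Krt14 itself overlapped between groups (8427 to 21269 CPM in DMSO mice, 9475 to 24884 in ABT-263 mice). Lor per 100 CPM of Krt14 was 77.6, 54.7, 70.6 and 59.1 in DMSO mice and 13.5, 32.04 and 28.8 in ABT-263 mice. Against the suprabasal keratin Krt10 the groups were apart for Lce1, Lor and Sprr2 as well, but overlapped for Ivl, Flg, Lce3 and Sprr1b. For Lor the gap was narrow, with 102.6 per 100 CPM of Krt10 in ABT-263 mouse 477 and 112.5 in DMSO mouse 481.

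**Figure D4:**
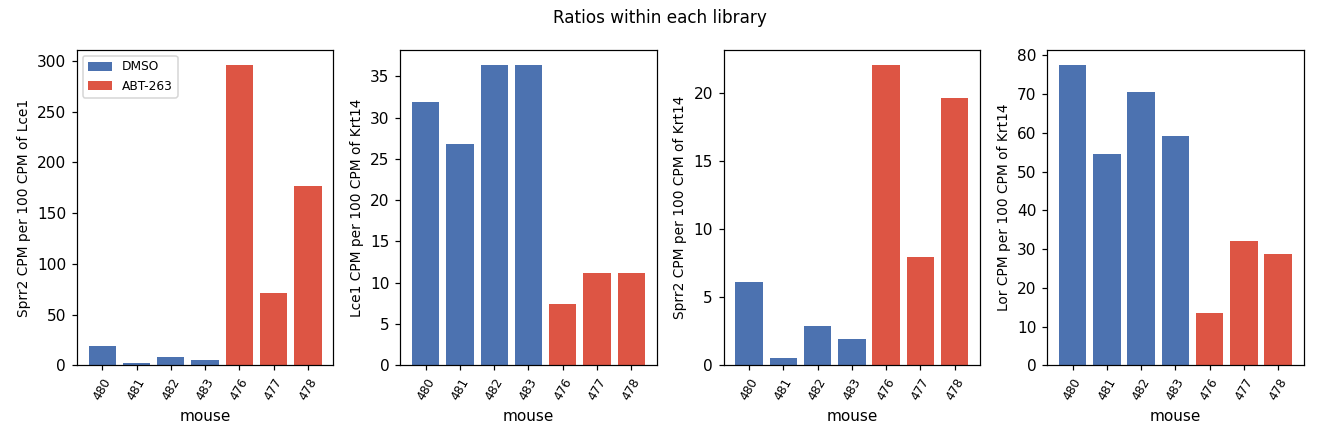
Bars give, for each mouse, the summed CPM of Sprr2 per 100 CPM of Lce1, and the CPM of Lce1, Sprr2 and Lor per 100 CPM of Krt14, with DMSO mice in blue and ABT-263 mice in red. In all 4 panels the groups do not overlap, with Sprr2 higher and Lce1 and Lor lower relative to the reference in ABT-263 mice.

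The other large proteins of the complex are S100 fused-type proteins that bind keratin filaments. Flg2 had 110.5, 135, 148 and 107.6 CPM in DMSO mice and 14.7, 79.2 and 71.6 CPM in ABT-263 mice. The groups did not overlap, and the log2 fold change of -1.18 (SE 0.50) had an adjusted p of 0.122, which became 0.0405 without ABT-263 mouse 476 (log2 fold change -0.73). Hrnr had 283, 83.7, 172.6 and 91.0 CPM in DMSO mice and 87.7, 332 and 220 CPM in ABT-263 mice, and Rptn 779, 42.7, 223 and 74.5 against 202, 832 and 449 CPM. Both overlapped, with log2 fold changes of 0.44 (adjusted p = 0.586) and 0.82 (adjusted p = 0.562). Tchh, a protein of the inner root sheath of the hair follicle, had 477 CPM in DMSO mouse 481, 2.5 to 3.2 CPM in the other controls and 30.8, 5.6 and 126 CPM in ABT-263 mice. Keratins of the inner root sheath were high in the same top mice, with a sum of 2513 CPM in mouse 481 and 451 CPM in mouse 478. In mouse 476, where Tchh was 30.8 CPM, their sum was the lowest of all (1.22 CPM), and it was at most 20.4 CPM in the other mice. The log2 fold change of Tchh was -1.16 (SE 2.09, adjusted p = 0.714), and 4.28 without mouse 481 (SE 1.06, adjusted p = 0.0402).

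Enzymes that build the envelope and those that shed it did not pass the test. Tgm1, the main envelope transglutaminase, had 248, 62.7, 92.3 and 59.2 CPM in DMSO mice and 213, 226 and 174 CPM in ABT-263 mice. Its log2 fold change was 0.82 (SE 0.50, adjusted p = 0.254), or 1.51 without mouse 480 (SE 0.21, adjusted p = 0.00842). Tgm3 had 100.5, 23.3, 23.2 and 18.7 CPM in DMSO mice and 29.6, 121 and 68.2 CPM in ABT-263 mice (log2 fold change 0.82, SE 0.70, adjusted p = 0.420). Only mouse 480 kept either gene from separating the groups.

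Corneocytes are shed when proteases cut the corneodesmosomes that hold them. Klk7, a chymotryptic kallikrein, had 1462, 429, 878 and 426 CPM in DMSO mice and 675, 1235 and 714 CPM in ABT-263 mice. Klk5, which activates it, had 443, 89.4, 198 and 97.6 CPM against 65.3, 260 and 115 CPM. Cdsn, their substrate corneodesmosin, had 1559, 270, 470 and 344 CPM against 235, 1159 and 420 CPM. All 3 overlapped between groups, with log2 fold changes of 0.13, -0.50 and -0.13. Asprv1, a protease that processes profilaggrin, had 3897, 595.5, 1471 and 905 CPM in DMSO mice and 633, 2833 and 1309 CPM in ABT-263 mice (log2 fold change -0.11, SE 0.72). Cnfn, the envelope protein cornifelin, had 1851, 186, 485 and 270 CPM against 706, 1173 and 619 CPM (log2 fold change 0.25, SE 0.76). In each of these 5 genes mouse 480 was the highest control and mouse 477 the highest treated mouse, and the adjusted p lay between 0.619 and 0.926.

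Genes around this program were counted in further lists. Across all genes tested edgeR called 12.4% higher and 11.7% lower, and no list in this paragraph exceeded these shares with all mice. An unadjusted p under 0.05 was found in 40.1% of genes. Of 20 suprabasal and cornified-layer genes 2 rose, the desmosomal cadherin Dsc1 (log2 fold change 2.18, adjusted p = 0.0297) and sciellin, Scel (1.90, adjusted p = 0.0256), and 1 fell, the keratin Krt77 (-2.97, adjusted p = 0.0298), with a list median of -0.07. Of the 7 fits with 1 mouse left out, Dsc1 was called in 1, Scel in 3 and Krt77 in 2, and the list had no call without DMSO mouse 482, without DMSO mouse 483, without ABT-263 mouse 478 or in the fit without a filter on low counts. Krt77 had 1184 to 3673 CPM in DMSO mice and 62.5 to 552 CPM in ABT-263 mice, and mouse 480 was its lowest control, as for Lce1m. Krt1 and Krt10 did not pass (log2 fold changes 0.26 and -0.05). Of 22 regulators of differentiation 2 rose, Grhl3 (2.19, adjusted p = 0.0109), a grainyhead-like factor needed for barrier formation, and Nfe2l2 (1.16, adjusted p = 0.0103), which drives antioxidant genes, and 2 fell, Gata3 (-2.03, adjusted p = 0.00677), a factor of barrier and hair follicle development, and Maf (-0.70, adjusted p = 0.0289). Gata3 had 317 to 491 CPM in DMSO mice and 61.5 to 137 CPM in ABT-263 mice, with no overlap. Grhl3, Nfe2l2 and Gata3 were called in all 7 fits with 1 mouse left out, and Maf in 3. Of 16 proteases and inhibitors 1 rose, the kallikrein Klk10 (1.89, adjusted p = 0.0301), called in 1 of the 7 fits with 1 mouse left out. None of 21 barrier lipid genes passed in edgeR, where 3 had an unadjusted p under 0.05, and with the DESeq2 Wald test 1 did (Ugcg). None of 4 wound keratins passed in either test, with 0 at an unadjusted p under 0.05 in edgeR. Without mouse 480, 7 barrier lipid genes, 3 wound keratins, 6 regulators and 4 proteases rose (background 11.6%), and 2 regulators fell (background 11.9%). In the suprabasal list Dsc1 and Pof1b then rose and Krt77 fell.

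Markers of other cells were counted in the same way, beside 12.4% of all genes tested called higher and 11.7% lower. Of 8 macrophage markers 5 rose, and their sum was 363 to 1086 CPM in DMSO mice and 1217 to 3206 CPM in ABT-263 mice. Of 4 neutrophil markers tested 2 rose, and the sum over all 8 listed was 3.20 to 19.0 CPM in DMSO mice and 477, 29.4 and 29.8 CPM in ABT-263 mice 476, 477 and 478. Mouse 476, with the most neutrophil RNA, also had the lowest Lce1 sum (706 CPM) and the lowest Lor. Fibroblast markers rose in 3 of 6 and skeletal muscle markers fell in 2 of 8, with a muscle sum of 33940 to 68504 CPM in DMSO mice, lowest in mouse 480, and 26927 to 35865 CPM in ABT-263 mice. Adipocyte, hair-shaft and inner root sheath lists had no call in edgeR, with 2, 0 and 0 genes at an unadjusted p under 0.05, and the hair-shaft sum was highest in mouse 481 (1214 CPM) and lowest in mouse 476 (3.54 CPM). Of 8 basal keratinocyte markers 1 rose (Itga6) and 1 fell (Krt15), and their sum overlapped, at 18597 to 31472 CPM in DMSO mice and 14049 to 36209 CPM in ABT-263 mice. Keratinocyte markers were therefore abundant in every library. With 1 mouse left out, calls held in all 7 fits for Cd14, Lum, Pdgfra and Tnnc2, in 6 for Csf1r and Csf3r, and in 1 or 2 for the other 8 marker genes called. With the DESeq2 Wald test 0 of 8 neutrophil markers were called. Some genes, Lce3a among them, have no adjusted p in that test. How many of the 8 lacked an adjusted p was not examined. That test called 6 of 8 macrophage, 3 of 6 fibroblast and 1 of 6 adipocyte markers higher (background 13.9%). It called 4 of 8 muscle markers lower (background 12.6%). The part of these cell types in the results on the members was not tested.

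Near-identical copies limit single values in the Sprr2, Lce1 and Lce3 families to differing degrees. The authors counted uniquely aligned read pairs, and 96.3% and 96.5% of the 50-base windows of Sprr2a1 and Sprr2a2 occur in another gene, as do 61.1% of those of Sprr2a3, so the levels of these 3 genes are uncertain. The share was 9.12% to 27.1% in the Lce1 genes other than Lce1m and 12.1% to 49.3% in the Lce3 genes. It was 0 in Lce1m, Lor, Flg and Flg2, and at most 4.27% in Sprr2d and Sprr2f. In Sprr2i, Sprr2b and Sprr2e it was 12.5%, 13.7% and 10.2%.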

How the data were processed

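Libraries from the back skin of 7 mice (4 DMSO, 3 ABT-263) were analyzed, holding 20344364 to 43562330 counts each. The authors aligned reads with STAR 2.7.9a to mm10 and made counts per Ensembl gene with featureCounts (Subread 1.6.2) from uniquely aligned proper pairs on the same strand, leaving out mitochondrial genes. The deposited counts are not normalized. The authors also deposited log2-like variance-stabilized values made with DESeq2 1.23.10, used here in 1 alternative. The labels and the study's methods name different RNA extraction kits. Replicates are single mice.

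Symbols and positions came from GENCODE M21 on GRCm38 (55190 of 55450 identifiers), which is not the Ensembl release the authors name. In R 4.3.3, edgeR 4.0.16 was used (TMM, filterByExpr, robust quasi-likelihood test, two-sided, Benjamini-Hochberg, threshold 0.05), in place of the Wald test of the study. Medians over members carry no test. The fit was checked on simulated data with 200 changed genes. It recovered 43.5% to 51.5% of them, and 4.63% to 5.43% of its calls were false. Promoter windows were from RefSeq.

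Members and gene lists were chosen with earlier results of these data known. Named members are the single genes of the rule outside the Sprr and Lce families except Cnfn and Rptn, plus Sprr1a, Sprr1b and members past the threshold. Of each further list the called genes with the largest fold change are named, up to 3 in each direction. Sprr2d, Sprr2f, Sprr2h, Sprr2i, Lce1b, Lce3a, Cnfn and Rptn were chosen after their values were seen. So were Krt1, Krt10, Krt14, Ugcg, Pof1b and the marker genes.

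Alternatives were the Wald test and size factors of DESeq2 1.42.0, every gene with a count, protein-coding genes alone, a minimum of 10 counts in each library, removal of length and GC trends (mgcv 1.9.3), thinning to the smallest library (seed 1234), limma 3.58.1 on the variance-stabilized values, and each mouse left out. Leaving out mice 480 and 481 together was added after seeing the data.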

Additional observations from a re-analysis of the deposited data

Results flagged for a closer look

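In the 4 DMSO mice, 45 measures were examined for a single mouse far from the other 3, as the gap to the nearest mouse divided by the whole range, and 11 exceeded Dixon's 95% critical value for 4 samples, where about 2.25 would by chance. In 10 of them DMSO mouse 480 was far above the others. These were Tgm3 (0.943), Sprr1b (0.914), Sprr1a (0.904), Lce3a (0.891), Sprr2f (0.876), Cdsn (0.845) and Sprr2h (0.837), the sum of the early members (0.868), the sum of the Lce3 genes (0.85) and Sprr1b per 100 CPM of Krt10 (0.844). In Tchh, the hair follicle gene, DMSO mouse 481 was far above the others (0.998). The measures share genes and mice and are not independent. They were taken as CPM or ratios of CPM rather than log values, while the critical value and the 2.25 assume normally distributed values. The number by chance is therefore only a rough guide, and a log scale was not examined.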

How the results depend on the processing

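No paired analysis was possible because the mouse numbers of the 2 groups do not overlap. With the DESeq2 Wald test 11 members passed the threshold (3 higher, 8 lower), with limma on the variance-stabilized values 6 (5 higher, 1 lower; background 11.9% and 11.5%), and without DMSO mice 480 and 481 13 (12 higher, 1 lower; background 4.45% and 5.43%), against 1 (0 higher, 1 lower) in edgeR with all mice. With each mouse left out the count ranged from 1 to 17 (higher 0 to 16, lower 1 to 7). Sprr2j-ps and Sprr2k, which reached the main filter only through the ABT-263 mice, were among the higher calls with limma. They were also among those without mouse 480, and without mice 480 and 481. Of the 3 higher calls with the Wald test, Sprr2a2 had not reached the main filter, and the levels of Sprr2a1 and Sprr2a2 are uncertain. Lce1m was called in every alternative. The 6 other alternatives gave 1 member each. The early and late medians kept their sign throughout, at 1.80 to 3.53 and -1.89 to -0.60 with each mouse left out. The 3.53, without mouse 480, includes 5 Sprr2 genes that reached the filter of that fit only through the ABT-263 mice. Over the other 10 early genes it was 2.66. The early median was lowest, 1.07 over 10 genes, with at least 10 counts required in every sample. Of 23 named members 13 kept their direction in all alternatives. Reversals were Asprv1 (0.0188 with limma, 0.42 without mice 480 and 481), Cdsn (0.57 without both) and Tchh (1.29 with limma, 4.40 without both). With single mice left out, log2 fold changes ranged from -0.81 to 0.68 for Asprv1, -1.004 to 0.74 for Cdsn, -0.0648 to 1.41 for Cnfn, -0.89 to 0.0586 for Flg, -0.0220 to 0.88 for Hrnr, -1.06 to 0.0383 for Ivl, -1.19 to 0.19 for Klk5, -0.18 to 0.60 for Klk7, -0.13 to 2.80 for Sprr1b and -2.73 to 4.28 for Tchh. The cause was not tested. With 3 treated mice and 4 controls that lie far apart in these genes, the test can miss large differences.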
